A study of Mus musculus with 12 samples.

Results

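The transcripts described are those of the caveola coat: the caveolins Cav1, Cav2 and Cav3, the cavins Cavin1, Cavin2 and Cavin3, and Ehd2. They were chosen by name, as 7 of the 37991 genes in the count files, and all 7 were found under these symbols (Cavin1, Cavin2 and Cavin3 were formerly Ptrf, Sdpr and Prkcdbp). Poly(A) RNA was read in 12 libraries of mouse fibroblasts grown from embryos and driven towards adipocytes for 6 days. The embryos were male, of stage E15.5, on the C57BL/6N background, and their cells had been kept for 4 passages. All cultures, controls included, received IBMX, dexamethasone, rosiglitazone and insulin for 48 h and then insulin. The 4 genotypes, with 3 libraries each, were wild type (WT), Gadd45a deficient (Gadd45a-KO), Ing1 deficient (Ing1-KO) and Gadd45a-/-;Ing1-/- (DKO), from intercrosses of 2 germline mutant lines. The labels do not say whether the libraries of a genotype came from separate embryos or cultures, so p-values measure only the spread between these libraries.

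Caveolae are small flask-shaped pits of the plasma membrane. Caveolins are inserted into the inner leaflet and oligomerise, cavins assemble on them from the cytosol as a second coat, and the ATPase EHD2 sits at the neck and holds the pit at the surface. Adipocytes are among the cells richest in caveolae, where the pits flatten under membrane tension and house receptors and lipid-handling proteins, and loss of caveolin-1 or cavin-1 causes lipodystrophy in mice and people.

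The labels and the state of the cultures bear on every comparison. Ing1, a reader of a histone mark in a deacetylase complex, followed its label, at 43.6 to 47.9 CPM (reads of a gene scaled to equal library totals) in the 6 libraries with an intact gene and 0.681 to 1.60 CPM in the 6 without. Gadd45a, whose protein answers stress and has been tied to DNA repair and demethylation, went against its label, at 13.4 to 18.4 CPM in WT and Ing1-KO but 138 to 144 CPM in those labelled Gadd45a-KO or DKO. Directions given for these 2 groups therefore rest on the labels. Adipocyte markers differed widely. The summed level of the 20 listed genes, led by Fabp4, Lpl and Acsl1, was 2183 to 4555 CPM in WT, 1464 to 1990 CPM where the label is Gadd45a-KO, 448 to 3896 CPM in Ing1-KO and 346 to 472 CPM in those labelled DKO. Fibroblast markers, led by Col1a1, summed to 53952 to 58484 CPM in WT and 52757 to 54159 CPM where the label is Gadd45a-KO. They summed to 53795 to 55770 CPM in Ing1-KO and 47232 to 51934 CPM where the label is DKO, below every other library. Their mean log2 CPM did not set the libraries labelled DKO apart, at 10.41 in DKO 3 against 10.39 in WT 3. Leukocyte markers, led by Lyz2, summed to 4483 to 5147 CPM in WT, 2398 to 6963 CPM where the label is Gadd45a-KO, 4480 to 5259 CPM in Ing1-KO and 8367 to 8880 CPM in those labelled DKO. Smooth muscle markers, led by Acta2, summed to 5150 to 6472 CPM in WT, 6304 to 6498, 5160 to 7421 and 6384 to 9731 CPM in the other 3 groups in the same order. Endothelial markers, led by Erg and with 5 of 10 at a mean under 1 CPM, summed to 10.8 to 11.9 CPM in WT and 11.1 to 12.4 CPM where the label is Gadd45a-KO. They summed to 12.8 to 21.4 CPM in Ing1-KO and 14.65 to 15.97 CPM where the label is DKO. In this sum all 6 libraries without Ing1 lay above the 6 with it. Erg weighed most in it, at means of 3.15 CPM in WT, 4.04 in Gadd45a-KO, 8.97 in Ing1-KO and 6.24 in DKO. The mean log2 CPM of the 8 tested endothelial markers overlapped, at 0.333 in WT 3 against 0.124 in Ing1-KO 3 and 0.102 in DKO 1. Fibroblast markers thus went with the labelled cell type, and leukocyte transcripts were present in every library. Adipocyte markers were uneven. Adipoq, 1 of them, stood at 69.0 to 164 CPM in WT, 9.14 CPM in Ing1-KO 3 and 3.11 to 5.73 CPM in the libraries labelled DKO. All 12 libraries were of day 6, so a turn into adipocytes could not be measured against undifferentiated cells.

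Per length of exon, Cav1 was the most abundant of the 7 transcripts. Its mean over the 12 libraries was 197 RPKM (CPM divided by the length of exon in kilobases), followed by Cavin1 at 116, Ehd2 at 81.3, Cavin2 at 48.4, Cavin3 at 47.1 and Cav2 at 28.2 RPKM. Cav3, the muscle caveolin, came last at 0.185 RPKM. Neighbours in this order kept it in 12 of 12 libraries, except Cavin2 and Cavin3, which stood in it in only 5 of 12 and did not differ beyond their spread. The lowest library of Cav1, at 167 RPKM, lay above the highest of Cavin1, at 137 RPKM.

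**Figure D1:**
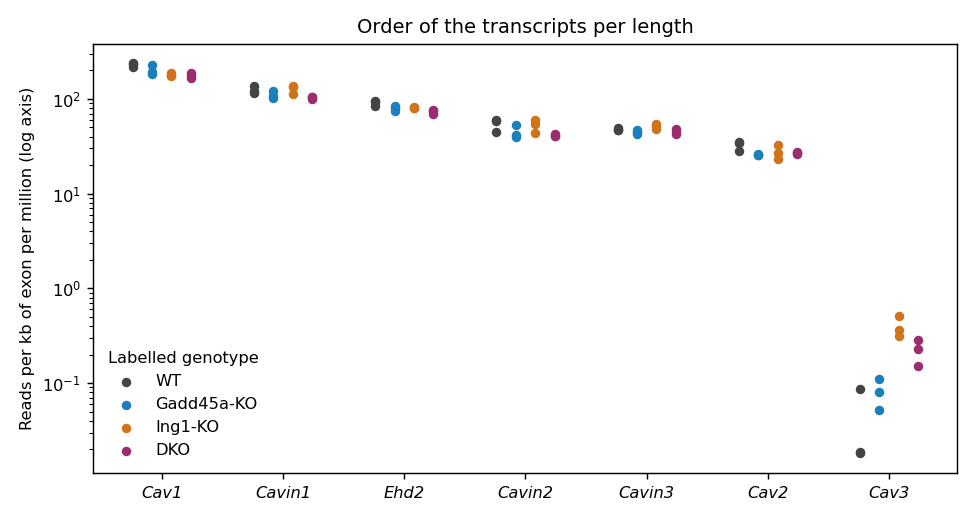
RPKM (log axis) for each of the 7 transcripts, with 1 point per library coloured by labelled genotype (n = 3 each). Cav1 stands highest at a mean of 197 RPKM, Cavin2 and Cavin3 overlap, and Cav3 lies far below at 0.185 RPKM.

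In the mutants some members were called and others were not. Against WT, Cav1 changed by -20.5% in Ing1-KO and by -22.4% in the libraries labelled DKO, and Cav3 rose from a few reads per library. In the libraries labelled DKO against those labelled Gadd45a-KO, which differ in the Ing1 label alone, Cav1 changed by -12.3% and was not called. EdgeR called neither Cavin1 nor Cavin2, while DESeq2 called both in the libraries labelled DKO against WT. The share of all genes that DESeq2 called is not given, and the edgeR shares below do not stand for it. In bulk RNA, fewer cells of a type and less RNA per cell cannot be told apart. By edgeR's quasi-likelihood test with Benjamini-Hochberg adjustment over the 16163 genes tested (called at adjusted p under 0.05), 2 of 7 members were called in Ing1-KO against WT, where 4.32% of all genes were. In the libraries labelled DKO against WT 3 of 7 were called, where 13% of all genes were. In the libraries labelled DKO against Ing1-KO 1 of 7 was called, where 11.7% were. With upper-quartile factors 38.6% of the called genes of that comparison were higher, against 50.7% with the TMM factors used, and 41.9% against 52.7% for DKO against Gadd45a-KO. Pooling the 6 libraries without Ing1 against the 6 with it, 2 of 7 were called, where 8% of all genes were. All 7 members passed the filter on low counts, but Cav3 passed it only through the libraries without Ing1, so counts that include it support nothing by themselves.

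**Figure D2:**
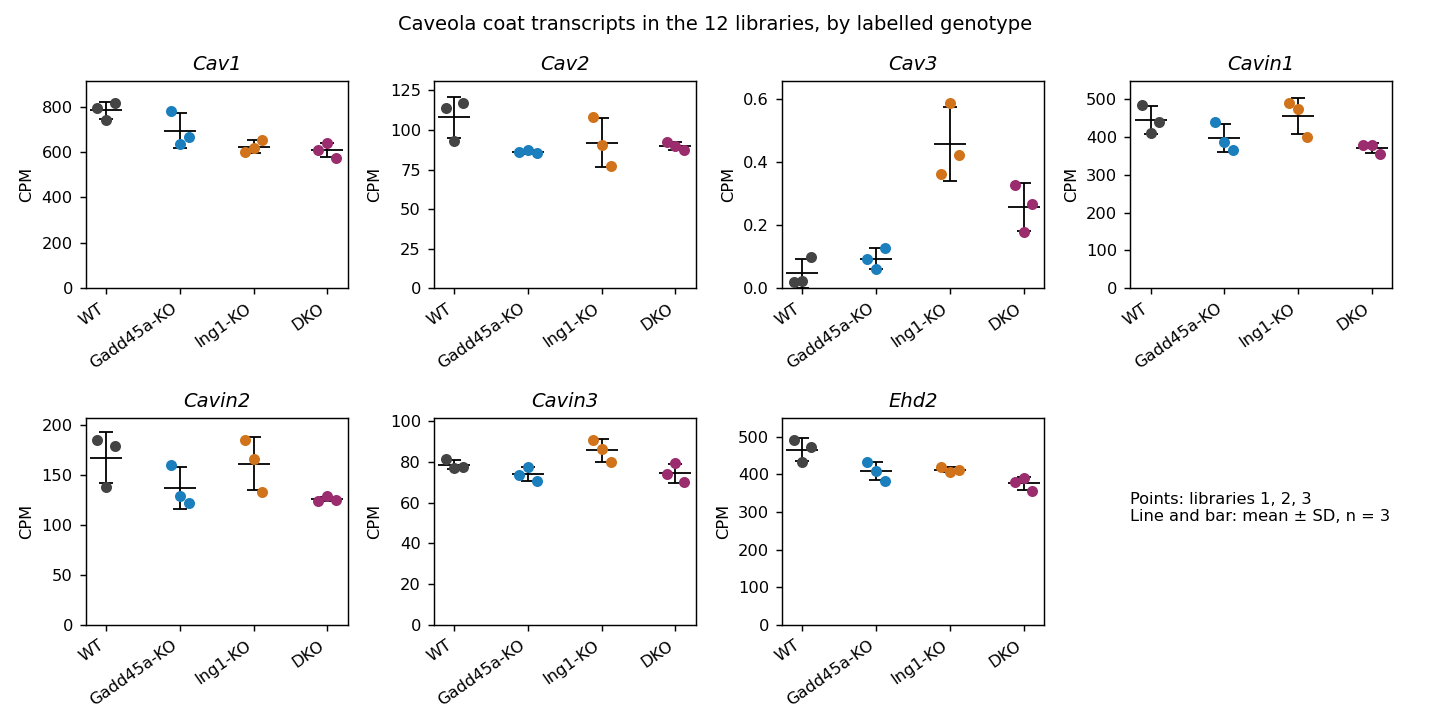
CPM of each member in the 12 libraries (points, libraries 1 to 3 from left to right within each labelled genotype), with the mean and SD of 3 libraries; every axis starts at 0. Cav1 is highest in WT at a mean of 784 CPM and lower in both groups without Ing1, at means of 623 and 608 CPM, while Cav3 is at most 0.127 CPM in any library with Ing1.

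Cav1 encodes the caveolin that builds the pit in cells other than striated muscle, Cav2 its partner, which needs Cav1 to reach the surface, and Cav3 the form of skeletal and heart muscle. Cav1 and Cav2 are neighbours on chromosome 6, and Cav3 lies on the same chromosome, as does Gadd45a. Their promoters are shown because Cav1 was called and its neighbour Cav2 was not, and because Gadd45a and Ing1 are linked to demethylation of CpG dinucleotides, which are in capitals. Each run holds the 250 bases before the first listed start in the RefSeq table of GRCm38.p6, on the plus strand: chr6:17306085-17306334 for Cav1, chr6:17280935-17281184 for Cav2 and chr6:112459255-112459504 for Cav3.
Cav1: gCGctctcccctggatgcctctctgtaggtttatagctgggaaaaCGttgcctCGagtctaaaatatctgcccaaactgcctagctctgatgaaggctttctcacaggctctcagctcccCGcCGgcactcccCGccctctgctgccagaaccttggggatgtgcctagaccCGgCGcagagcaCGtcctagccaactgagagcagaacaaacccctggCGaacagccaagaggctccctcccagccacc
Cav2: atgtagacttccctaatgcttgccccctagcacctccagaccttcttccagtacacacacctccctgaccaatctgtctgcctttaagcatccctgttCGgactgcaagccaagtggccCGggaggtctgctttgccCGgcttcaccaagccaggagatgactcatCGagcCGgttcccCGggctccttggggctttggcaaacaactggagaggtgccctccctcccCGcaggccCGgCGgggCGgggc
Cav3: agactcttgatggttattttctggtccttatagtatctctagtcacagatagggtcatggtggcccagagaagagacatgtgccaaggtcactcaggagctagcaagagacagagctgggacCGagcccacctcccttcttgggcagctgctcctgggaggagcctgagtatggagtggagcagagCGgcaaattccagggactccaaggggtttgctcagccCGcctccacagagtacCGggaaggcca
The Cav1 and Cav2 stretches hold 10 CpG each and that of Cav3 holds 4. Of all 32851 promoters in the table, 37.8% hold at least 10 and 62.2% at least 4, with a median of 6. GGGCGG, searched on both strands and itself holding a CpG, occurs in Cav1 and Cav2 but not in Cav3, and in 32.7% of all promoters. CAGCTG, which reads the same on both strands, occurs in Cav3, 106 bases before the start, and in 13% of all promoters. The promoter of Ehd2, another member, holds it too, 204 bases before the start. CpG methylation was not analysed here.

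Cav1 stood at 795, 742 and 815 CPM in WT, at 599, 619 and 653 CPM in Ing1-KO and at 609, 640 and 576 CPM in the libraries labelled DKO. The libraries labelled Gadd45a-KO lay between, at 780, 635 and 666 CPM. Every WT library was above every library without Ing1, and the libraries labelled Gadd45a-KO overlapped both. CPM that do not overlap were found in the lower direction for 12.5% of genes in Ing1-KO against WT and for 19.7% in DKO against WT. Cav1 fell by 0.33 on the log2 scale in Ing1-KO (SE 0.0744; edgeR adjusted p = 0.0347), a change of -20.5%, and by 0.37 in the libraries labelled DKO (SE 0.0745; adjusted p = 0.0143). In DKO against Gadd45a-KO the log2 fold change of Cav1 was -0.19 (SE 0.0744, edgeR adjusted p = 0.187), which was not called. Pooled over the Gadd45a labels, Cav1 fell by 0.26 with Ing1 loss (SE 0.0526, edgeR adjusted p = 0.0157). This pooled call was kept in all 12 fits that left out 1 library, at adjusted p between 0.00941 and 0.0459. The call in Ing1-KO alone was lost in 7 of 12 such fits, up to an adjusted p of 0.139: those without WT 1, 2 or 3, Ing1-KO 1 or 2, Gadd45a-KO 3 or DKO 1. The call in the libraries labelled DKO was lost without WT 1, WT 3 or DKO 1, up to an adjusted p of 0.0646. The summed fibroblast markers, those of the main cell type, were also lowest in the libraries labelled DKO. The summed endothelial markers, in which Erg weighed most, were highest where Ing1 was lacking. Neither split held for the mean log2 CPM of the same markers, and their part in the Cav1 values was not tested.

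For the Gadd45a label, Cav1 gave log2 fold changes of -0.18 in Gadd45a-KO against WT (SE 0.0744; edgeR adjusted p = 0.880) and -0.04 in DKO against Ing1-KO (SE 0.0744; adjusted p = 0.773). The interaction, which tests whether the double mutant departs from the sum of the single ones, was 0.14 (SE 0.105; adjusted p = 0.574). With the mean of the adipocyte markers as a covariate, the Cav1 value for Ing1 loss was -0.30 (adjusted p = 0.0775) and that in Ing1-KO against WT stayed called (adjusted p = 0.0315), whereas no member was called in the libraries labelled DKO against WT. This covariate was as low as 1.36 to 1.84 (mean log2 CPM) in the libraries labelled DKO and 4.61 to 5.78 in WT, so these 2 groups did not overlap in it.

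Cav2 stood at 114, 93.3 and 117 CPM in WT, and at 85.8, 87.6 and 85.3 CPM in libraries labelled Gadd45a-KO. It stood at 108, 90.4 and 77.3 CPM in Ing1-KO and at 92.2, 89.8 and 87.4 CPM in those labelled DKO. The 2 groups labelled with a Gadd45a lesion lay below every WT library, as 7.61% of genes did for Gadd45a-KO and 19.7% for DKO. In Ing1-KO, Cav2 overlapped WT. No comparison called it. The log2 fold change was -0.32 in Gadd45a-KO against WT (SE 0.110; edgeR adjusted p = 0.880), -0.23 in Ing1-KO (SE 0.110; adjusted p = 0.263) and -0.27 in DKO (SE 0.110; adjusted p = 0.140). With Ing1 loss pooled it was -0.09 (adjusted p = 0.530), which turned to 0.23 (adjusted p = 0.0443) with the adipocyte mean as covariate. Cav1 and Cav2 overlap the antisense gene Gm15581, which drew 7 reads over all libraries; the strand setting of the counting is not given in the sources used here.

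Cav3 was counted with 1, 1 and 5 reads in WT, 5, 3 and 6 in the libraries labelled Gadd45a-KO, 18, 28 and 22 in Ing1-KO and 14, 8 and 13 in those labelled DKO. All 6 libraries without Ing1 lay above all 6 with it, as they did for 1.38% of genes. In sum, 103 reads stood against 21, a ratio of 5.08 at equal depth (exact 95% interval 3.15 to 8.55, counting error only). In Ing1-KO 68 reads stood against 7 in WT, a ratio of 9.54 (interval 4.39 to 24.6). Cav3 rose by 3.16 on the log2 scale in Ing1-KO (SE 0.463; edgeR adjusted p = 0.00654), 2.34 in the libraries labelled DKO (SE 0.536; adjusted p = 0.0190) and 2.30 with Ing1 loss pooled (SE 0.333; adjusted p = 0.00327). These 3 values rest on a gene that entered the test through the group where it is high. With no filter on low counts the adjusted p were 0.00425, 0.0257 and 0.00218. Even in Ing1-KO the level stayed at 0.361 to 0.586 CPM. The call in DKO was lost without WT 1, WT 2 or DKO 1, up to an adjusted p of 0.0895, and the other 2 were kept in all 12 fits. Between the libraries labelled DKO and Ing1-KO the log2 fold change was -0.82 (adjusted p = 0.109). Of 12 skeletal muscle markers, 9 had a mean under 1 CPM, and Ckm was at 0 in every library. Their summed level, led by Acta1, was 24.1 to 28.9 CPM in WT, 26.9 to 29.1 CPM where the label is Gadd45a-KO, 23.5 to 27.5 CPM in Ing1-KO and 24.4 to 45.9 CPM where it is DKO. This sum varied by more CPM between libraries than Cav3 reached. The summed endothelial markers, though not their mean log2 CPM, were split between the libraries as Cav3 was. Erg, which led that sum, rose by 1.51 on the log2 scale in Ing1-KO (SE 0.276, edgeR adjusted p = 0.0185). It was the only 1 of the 8 tested endothelial markers called there, and 3 of the 8 had negative log2 fold changes. Pecam1, Kdr and Vwf had means of 0.399, 2.21 and 1.98 CPM in WT and 0.323, 2.03 and 1.87 CPM in Ing1-KO. The part of any of these cell types in the Cav3 values was not tested.

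**Figure D3:**
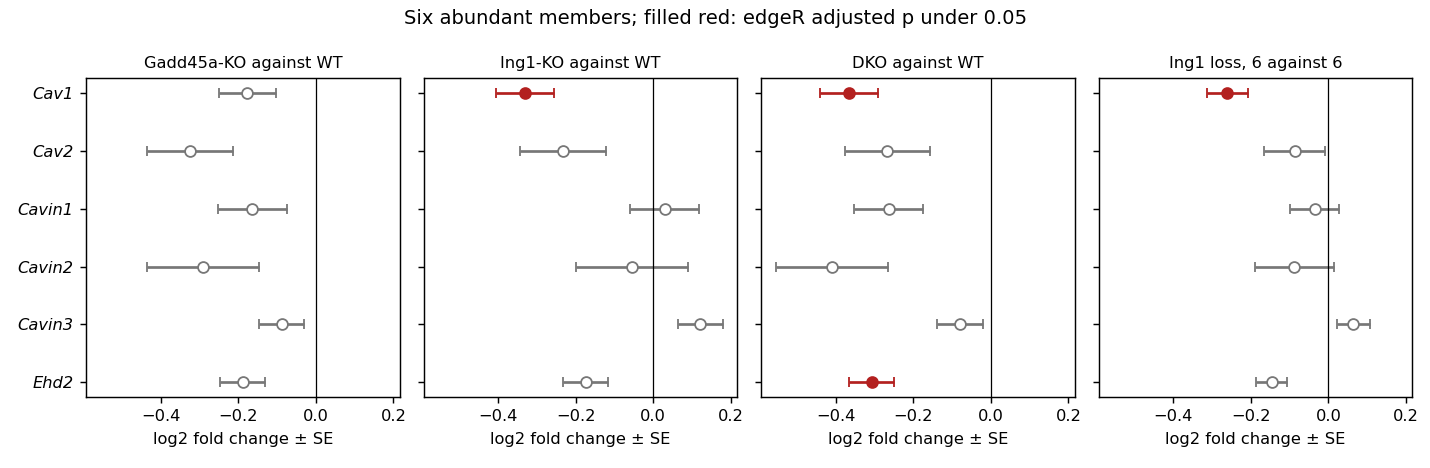
Log2 fold changes with SE of the 6 members above 5 CPM in 3 comparisons with WT and for Ing1 loss over 6 against 6 libraries; filled red points have an edgeR adjusted p under 0.05. Cav1 is called in 3 of the panels, at -0.33, -0.37 and -0.26, Ehd2 in DKO alone at -0.31, and no cavin in any.

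EdgeR called no cavin against WT, while DESeq2 called Cavin1 and Cavin2 in the libraries labelled DKO. No share of all genes is given for DESeq2, so whether its calls exceed that share is not known here. Cavin1 encodes the protein without which no caveolae form, Cavin2 one that helps to bend the membrane, and Cavin3 one linked to the traffic of caveolae along microtubules. Promoters of Cavin1 and Cavin2 are shown because their transcripts varied most closely together although they lie on chromosomes 11 and 1. They are the 250 bases before the first listed start in RefSeq, GRCm38.p6, at chr11:100970618-100970867 on the minus strand for Cavin1 and chr1:51288876-51289125 on the plus strand for Cavin2, with CpG in capitals.
Cavin1: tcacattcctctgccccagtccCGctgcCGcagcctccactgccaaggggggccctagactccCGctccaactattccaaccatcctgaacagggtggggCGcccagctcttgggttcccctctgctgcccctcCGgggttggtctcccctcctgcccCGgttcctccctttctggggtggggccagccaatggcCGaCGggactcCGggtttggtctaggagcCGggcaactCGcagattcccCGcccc
Cavin2: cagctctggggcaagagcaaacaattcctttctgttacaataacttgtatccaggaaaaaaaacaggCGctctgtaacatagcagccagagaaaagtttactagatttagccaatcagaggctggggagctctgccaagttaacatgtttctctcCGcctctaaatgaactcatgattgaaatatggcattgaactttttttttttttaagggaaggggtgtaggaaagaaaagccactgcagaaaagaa
Cavin1 holds 12 CpG, as many as or more than which are found in 33.5% of all promoters, and Cavin2 holds 2, a number that 81.2% reach. CCAAT, searched on both strands, occurs in both and in 33.8% of all promoters. GGGCGG occurs in Cavin1 only of the pair.

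Cavin1 stood at 485, 411 and 440 CPM in WT, and at 439, 388 and 366 CPM in libraries labelled Gadd45a-KO. It stood at 490, 474 and 400 CPM in Ing1-KO and at 378, 379 and 356 CPM in those labelled DKO. Only the last group lay below every WT and every Ing1-KO library, a separation that 19.7% and 16.8% of genes showed. Its log2 fold change was -0.26 in DKO against WT (SE 0.0890; edgeR adjusted p = 0.0744), -0.29 in DKO against Ing1-KO (SE 0.0890; adjusted p = 0.0545) and 0.03 in Ing1-KO against WT (SE 0.0889; adjusted p = 0.890). DESeq2 called it in DKO against WT (adjusted p = 0.0473).

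Cavin2 stood at 185, 138 and 179 CPM in WT, and at 160, 128 and 122 CPM in libraries labelled Gadd45a-KO. It stood at 185, 166 and 133 CPM in Ing1-KO and at 124, 129 and 125 CPM in those labelled DKO. The libraries labelled DKO were the most alike, with an SD of 2.42 CPM against 20.6 to 26.4 CPM in the other groups. They lay below all WT and all Ing1-KO libraries, separations that 19.7% and 16.8% of genes showed. Its log2 fold change was -0.41 in DKO against WT (SE 0.145; edgeR adjusted p = 0.0902) and -0.05 in Ing1-KO against WT (SE 0.144; adjusted p = 0.874). DESeq2 called the former (adjusted p = 0.0349).

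Cavin3 was called by edgeR in 1 comparison, and by DESeq2 also for the pooled Gadd45a label. It stood at 81.4, 77.1 and 77.7 CPM in WT, and at 73.8, 77.5 and 70.9 CPM in libraries labelled Gadd45a-KO. It stood at 90.8, 86.3 and 79.8 CPM in Ing1-KO and at 74.0, 79.5 and 70.0 CPM in those labelled DKO. Every Ing1-KO library lay above every one labelled DKO, by as little as 79.8 against 79.5 CPM. Such a separation was found for 16.8% of genes. Cavin3 fell by 0.20 on the log2 scale in DKO against Ing1-KO (SE 0.0587; edgeR adjusted p = 0.0489). That call was lost in 10 of 12 fits that left out 1 library, kept only without Gadd45a-KO 1 or Ing1-KO 3, and reached an adjusted p of 0.152. Against WT its log2 fold change was 0.12 in Ing1-KO (SE 0.0587; adjusted p = 0.269) and -0.08 in DKO (SE 0.0588; adjusted p = 0.411).

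Ehd2 stood at 492, 432.5 and 474 CPM in WT, and at 432.5, 410 and 384 CPM in libraries labelled Gadd45a-KO. It stood at 421, 407 and 411 CPM in Ing1-KO and at 381, 392 and 357 CPM in those labelled DKO. Ing1-KO and the libraries labelled DKO lay below every WT library, as 12.5% and 19.7% of genes did. Gadd45a-KO 1 equalled WT 2 to the digits given. Ehd2 fell by 0.31 on the log2 scale in the libraries labelled DKO against WT (SE 0.0579; edgeR adjusted p = 0.0109), a change of -19.2%. The call was lost without WT 1 (adjusted p = 0.0581). The single mutants gave log2 fold changes of -0.19 in Gadd45a-KO (SE 0.0578; adjusted p = 0.880) and -0.17 in Ing1-KO (SE 0.0578; adjusted p = 0.116), and the interaction was 0.06 (SE 0.0818; adjusted p = 0.790). Pooled, Ing1 loss gave -0.15 (SE 0.0409; adjusted p = 0.0516) and the Gadd45a label -0.16 (SE 0.0409; adjusted p = 0.0572).

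For the Gadd45a label, pooled over 6 against 6 libraries, edgeR called 0 of 7 members, where 2.44% of genes were called. At an unadjusted p under 0.05 there were 5 members, beside 4356 of all 16163 genes. Their log2 fold changes were -0.23 for Cavin1, -0.32 for Cavin2, -0.14 for Cavin3, -0.16 for Ehd2 and -0.18 for Cav2. The edgeR adjusted p of these 5 lay between 0.0572 and 0.172. DESeq2 called 4 of these 5 members, Cavin1, Cavin2, Cavin3 and Ehd2, at adjusted p between 0.0103 and 0.0294. The share of all genes that DESeq2 called is not given here, and edgeR's 2.44% does not stand for it. In Gadd45a-KO against WT edgeR called 0 of 7, as did DESeq2, where edgeR called 0.0124% of genes. There 3 members had an unadjusted p under 0.05, beside 886 of all 16163 genes. In DKO against Gadd45a-KO both tools called 0 of 7, where edgeR called 1.26% of genes. Of the members 2 had an unadjusted p under 0.05, beside 3236 of all 16163 genes. For the interaction both called 0 of 7, edgeR called 0 of all 16163 genes, 2204 genes had an unadjusted p under 0.05, and 1 member did, Cav3 (log2 value -1.73, SE 0.741; adjusted p = 0.347). The median log2 fold change of the members was -0.27 in DKO against WT and -0.16 for the Gadd45a label pooled, beside -0.0026 and -0.0096 over all genes tested. It was -0.18 in Gadd45a-KO against WT, -0.20 in DKO against Ing1-KO and -0.10 in DKO against Gadd45a-KO. In Ing1-KO against WT it was -0.05, and with Ing1 loss pooled -0.09. The medians over all genes in these comparisons lay between -0.0151 and 0.0031.

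Proportions between members were compared by exact permutation within the Gadd45a label, two-sided, over 5 pairs; the smallest p this design allows is 0.005. The Cav1 to Cavin1 ratio of CPM was 1.64, 1.81 and 1.85 in WT, 1.78, 1.64 and 1.82 in the libraries labelled Gadd45a-KO, 1.22, 1.31 and 1.63 in Ing1-KO and 1.61, 1.69 and 1.62 in those labelled DKO. It was lowest in Ing1-KO 1 and 2, and the other libraries overlapped. The ratio changed by -0.22 on the log2 scale with Ing1 loss (exact permutation p = 0.015, adjusted over the pairs 0.075), which failed the correction. For Cav1 to Cav2 the difference was -0.17 (exact p = 0.16, adjusted 0.2), for Cavin1 to Cavin2 0.05 (exact p = 0.39, adjusted 0.39), for Cavin1 to Cavin3 -0.10 (exact p = 0.08, adjusted 0.133) and for Cavin1 to Ehd2 0.11 (exact p = 0.075, adjusted 0.133).

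**Figure D4:**
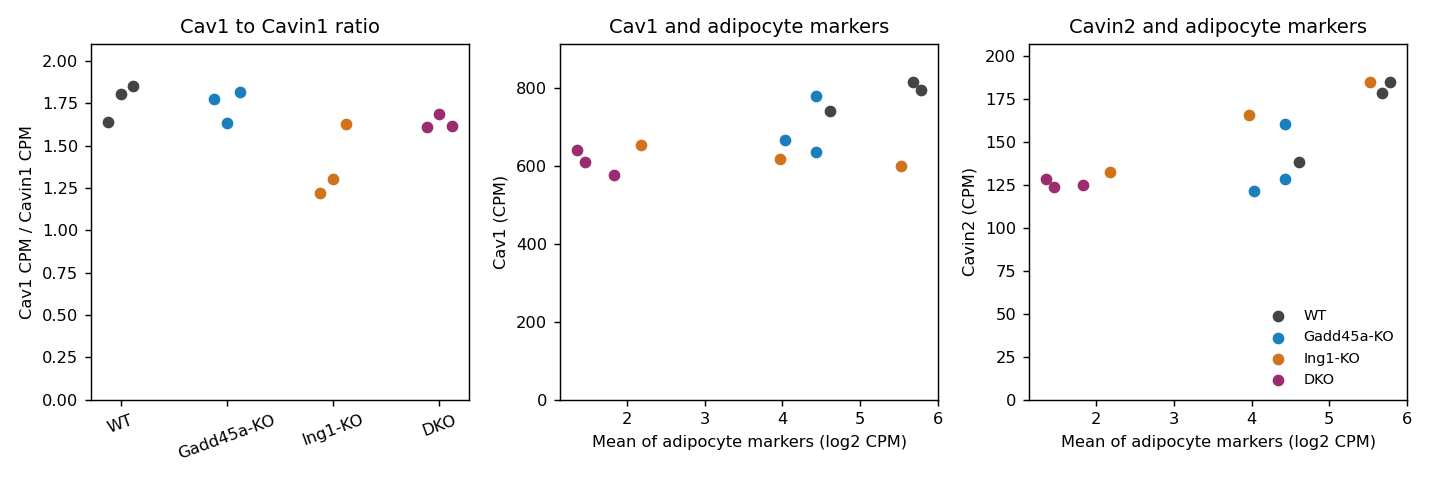
Left, the ratio of Cav1 to Cavin1 CPM in the 12 libraries by labelled genotype. Centre and right, CPM of Cav1 and Cavin2 against the mean log2 CPM of the 20 adipocyte markers, with 1 point per library; Ing1-KO libraries run from 2.18 to 5.52 on that scale with Cavin2 between 133 and 185 CPM and Cav1 between 599 and 653 CPM.

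Libraries also differed within genotypes in their adipocyte markers, most of all in Ing1-KO, at 5.52, 3.96 and 2.18 (mean log2 CPM of the 20 markers). No library lay between 2.18 and 3.96, so coefficients over all 12 span that gap and are given without a test. Those r were 0.61 for Cav1, 0.66 for Cav2, -0.51 for Cav3, 0.73 for Cavin1, 0.77 for Cavin2, 0.39 for Cavin3 and 0.79 for Ehd2. Within genotypes, as deviations from each genotype's mean over the 12 libraries, Cav2 had a Pearson r of 0.93 with this mean (exact permutation p = 0.0378, adjusted over the 7 members 0.0900) and a Spearman rho of 0.77 (exact p = 0.0471). Cavin2 had r = 0.80 (exact permutation p = 0.0116, adjusted 0.0810) and rho = 0.77 (exact p = 0.0285), and Cavin1 r = 0.73 (exact p = 0.0386, adjusted 0.0900) and rho = 0.62 (exact p = 0.0910). None passed the correction. Cav1 gave r = -0.19 (exact permutation p = 0.490, adjusted 0.572) and rho = -0.17 (exact p = 0.579). Without Ing1-KO 1 and 3, the libraries farthest from their genotype's mean, r was 0.81 for Cav2, 0.77 for Cavin2, 0.56 for Cavin1 and 0.25 for Cav1. Cavin3, Ehd2 and Cav3 gave r of 0.60, 0.33 and 0.00 (exact p = 0.120, 0.112 and 0.993). Over the 8 libraries above the gap, a set chosen after their values were seen and of 3 genotypes, Cav2 had r = 0.95 (exact permutation p = 0.00357, adjusted over 7 members 0.0250) and rho = 0.83 (exact p = 0.0154). Ehd2 had r = 0.83 there (exact p = 0.00940, adjusted 0.0329) and rho = 0.86 (exact p = 0.0107). Over these 8 libraries the permutation ran across genotypes, so differences between genotypes enter both results. Nor do these p-values allow for the choice of the 8 libraries, so they support no relation by themselves. Within genotypes Ehd2 had only the r of 0.33 given above. Without the 2 libraries farthest from the median, r was 0.88 for Cav2 and 0.50 for Ehd2, so the latter rests on those libraries.

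Pairs of members ran together to different degrees. Over the 12 libraries, which share genotype and extent of differentiation, log2 CPM of Cavin1 and Cavin2 had r = 0.95, and 0.93 after removal of genotype means. Cav1 ran closest to Ehd2 (r = 0.84, and 0.66 within genotypes), and with its neighbour Cav2 it had r = 0.44, and -0.04 within genotypes. Against Cav3 it had r = -0.72, and 0.19 within genotypes. These coefficients are descriptions and carry no test. Of protein-coding genes at a mean of at least 5 CPM, those most like Cav1 over the 12 libraries were Kirrel, Afap1, Carhsp1, Nadk and Ybx3, with r between 0.939 and 0.948. Those most like Cavin1 were Slc18b1, C1qtnf12, Ppcs, Tob1 and Dynll2, with r between 0.926 and 0.958.

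Genes listed as partners of the caveola numbered 16, of which 15 were tested. Not all of them act at the pit, as given below for Ehd4 and Flot1. In Ing1-KO against WT 1 rose and 0 fell, in DKO against WT 1 rose and 1 fell, in DKO against Ing1-KO 0 rose and 1 fell, and with Ing1 loss pooled 1 rose and 0 fell; no other comparison called any. The 1 of 15 in Ing1-KO and 2 of 15 in DKO against WT were near the shares of all genes called, 4.32% and 13%, and the 1 of 15 in DKO against Ing1-KO and with Ing1 loss pooled stood beside 11.7% and 8%. Cavin4, the muscle cavin, stood at 3.92, 3.82 and 3.32 CPM in WT and at 4.51, 5.53 and 4.91 CPM in Ing1-KO. It rose by 0.43 on the log2 scale (SE 0.10; edgeR adjusted p = 0.0374), and by 0.33 with Ing1 loss pooled (SE 0.0711; adjusted p = 0.0201). Ehd4, a relative of Ehd2 that works on endosomes, stood at 55.9, 61.0 and 62.7 CPM in WT and at 97.1, 96.3 and 98.7 CPM in the libraries labelled DKO. In Gadd45a-KO libraries 1 to 3 it stood at 46.0, 78.8 and 71.9 CPM, and in Ing1-KO at 69.4, 70.0 and 69.9 CPM. In the libraries labelled DKO it rose by 0.70 against WT (SE 0.152; edgeR adjusted p = 0.0181). Summed leukocyte markers were 2398, 6963 and 6443 CPM in the same Gadd45a-KO libraries and highest in those labelled DKO, and their part in the Ehd4 values was not tested. Flot1, a scaffold of flotillin domains rather than caveolae, fell by 0.16 on the log2 scale in DKO against WT (SE 0.0431; adjusted p = 0.0325). The median of the 15 was 0.07 in DKO against WT, beside -0.0026 over all genes.

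Of 14 receptors, transporters and other proteins known to reside in caveolae, all 14 were tested. In DKO against WT 3 rose and 1 fell, in DKO against Ing1-KO 2 rose and 0 fell, in Ing1-KO against WT 0 rose and 1 fell, with Ing1 loss pooled 1 rose and 1 fell, and for the Gadd45a label pooled 1 rose and 0 fell. These 4, 2, 1, 2 and 1 of 14 stood beside 13%, 11.7%, 4.32%, 8% and 2.44% of all genes called. Tgfbr1, the type I receptor of TGF-beta, stood at 106, 113 and 111 CPM in WT and 138, 140 and 133 CPM in the libraries labelled DKO, and rose by 0.32 (SE 0.0608; edgeR adjusted p = 0.0113). Entpd1, an ecto-nucleotidase that leukocytes also carry, rose by 1.59 (SE 0.388, adjusted p = 0.0277), and Cd59a, an inhibitor of complement, by 1.33 (SE 0.359, adjusted p = 0.0378). Cd59a was not highest in these libraries, at means of 10.2 CPM in WT, 28.1 in Gadd45a-KO, 21.5 in Ing1-KO and 25.7 in DKO. Its log2 fold change in Gadd45a-KO against WT was 1.46 (SE 0.359, edgeR adjusted p = 0.880). Leukocyte markers were highest in the libraries labelled DKO, with 8 of 20 called higher and 0 lower against WT. Their part in the values of these genes was not tested. Aoc3, an amine oxidase abundant in adipocytes, fell by 1.45 on the log2 scale (SE 0.392; edgeR adjusted p = 0.0380), as did 18 of 20 adipocyte markers, whose part in it was not tested. Bmpr2, a BMP receptor, fell by 0.15 on the log2 scale with Ing1 loss pooled (SE 0.0340; adjusted p = 0.0225), and Egfr rose by 0.18 (SE 0.0492; adjusted p = 0.0473).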

How the data were processed

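Poly(A) RNA of 12 libraries, 3 per labelled genotype, was read from 1 end. Per the file layout, the deposited values are unnormalized read counts, 1 per Ensembl gene identifier. The submitters' processing notes list TopHat2 2.0.9, Bowtie2 2.1.0, HTSeq 0.5.4 and the builds mm9 and NCBIM37. Depth was 42891627 to 52860419 gene reads. The 5 lines that name no gene took 24.2% to 24.8% of each library and were left out. Symbols came from GENCODE M21 (GRCm38), promoters from RefSeq for 6 of 7 members.

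Computed here were CPM, RPKM over exon length, and edgeR 4.0.16 tests (R 4.3.3; TMM, filterByExpr, robust quasi-likelihood, all 12 libraries in 1 fit of genotype means, adjusted over 16163 genes). SE is the absolute log2 fold change over the square root of F. Alternatives were upper-quartile or RLE factors, no filter, at least 5 CPM, DESeq2 1.42.0, the replicate block, the adipocyte mean as covariate, each library left out, only the 6 libraries compared and, added after seeing the data, edgeR's legacy fit. Permutations used scipy 1.17.1 and numpy 2.4.6. Steps were tested on simulated counts. All 12 pairs of libraries of 1 genotype differed beyond sampling noise.

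Members and lists were chosen with earlier results of these data known. Named are all members, the targets, up to 4 called genes per list and comparison with the smallest adjusted p, leading markers, and the 5 genes most like Cav1 and Cavin1.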

Additional observations from a re-analysis of the deposited data

How the results depend on the processing

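The number of members called moved with several settings. Ing1-KO against WT gave 1 in place of 2 with at least 5 CPM, where Cav3 is not tested, and with the replicate block (Cav1 adjusted p = 0.0542). DKO against WT gave 0 in place of 3 with the adipocyte covariate, 5 with DESeq2 and 4 with the replicate block. DKO against Gadd45a-KO gave 1 in place of 0 with the covariate. DKO against Ing1-KO, with 1, gave 2 with upper-quartile factors, at least 5 CPM, the replicate block or DESeq2, and 0 with no filter, the covariate or only the 6 libraries compared. Ing1 loss gave 1 in place of 2 with at least 5 CPM, and the Gadd45a label, with 0, gave 1 with at least 5 CPM and 4 with DESeq2. Apart from constructions that test fewer genes, the cause was not tested. Shares of all genes called are given for edgeR's main fit only, so the counts under other settings, DESeq2 included, have none beside them.

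Leaving out each library in turn gave 1 to 2 members in Ing1-KO against WT, 0 to 4 in DKO against WT (0 without WT 1), 0 to 3 in DKO against Ing1-KO (3 without Ing1-KO 3) and 0 to 5 for the Gadd45a label (3 without WT 2, 4 without Gadd45a-KO 1, 5 without Ing1-KO 3). The log2 difference of ratios with Ing1 loss ran from -0.24 to -0.091 for Cav1 to Cav2, -0.28 to -0.18 for Cav1 to Cavin1 (exact p up to 0.075, without WT 3), -0.12 to -0.060 for Cavin1 to Cavin3 and 0.089 to 0.15 for Cavin1 to Ehd2. The r with adipocyte markers within genotypes ran from -0.38 to 0.081 for Cav1, 0.84 to 0.95 for Cav2, -0.17 to 0.34 for Cav3, 0.47 to 0.81 for Cavin1, 0.69 to 0.90 for Cavin2, 0.29 to 0.77 for Cavin3 and 0.15 to 0.50 for Ehd2. Log2 fold changes that changed sign on leaving out a library ran from -0.027 to 0.11 for Cavin1 and -0.17 to 0.067 for Cavin2 in Ing1-KO against WT, -0.20 to 0.010 for Cavin2 and -0.037 to 0.051 for Cavin3 in DKO against Gadd45a-KO, -0.076 to 0.0031 for Cav1 and -0.14 to 0.10 for Cav2 in DKO against Ing1-KO, -0.064 to 0.0064 for Cavin1 with Ing1 loss, -0.12 to 0.60 for Cav3 with the Gadd45a label and -0.19 to 0.064 for Cavin2 in the interaction; none of these was called.

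With the adipocyte covariate, signs turned for Cavin2 in Ing1-KO against WT (0.20), for Cav2 (0.32), Cavin1 (0.11), Cavin2 (0.26) and Cavin3 (0.11) in DKO against WT, for Cavin1 (0.17) and Cavin2 (0.36) in DKO against Gadd45a-KO, for Cav2 (0.34) and Cavin2 (0.063) in DKO against Ing1-KO, for Cav2 (0.23), Cavin1 (0.17) and Cavin2 (0.28) with Ing1 loss, for Cav2 (0.091) and Cav3 (-0.011) with the Gadd45a label and for Cavin2 in the interaction (0.16). Cavin3 in DKO against Gadd45a-KO turned to -0.014 with upper-quartile factors and -0.0036 with at least 5 CPM.

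Replicate numbers did not pair libraries: deviations of same-numbered libraries correlated between -0.19 and 0.25, above 0.1 in 2 of 18 pairs. The depth limits Cav3 alone, at 1 to 28 reads per library.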

Other observations

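Of the caveolar residents that passed no test, 3 tied to adipocyte function are given here. They were chosen after their values were seen. Cd36, a fatty acid transporter, stood at 538, 286 and 483 CPM in WT and at 234, 270 and 206 CPM in libraries labelled Gadd45a-KO. It stood at 513, 199 and 76.2 CPM in Ing1-KO and at 160, 158 and 118 CPM in the libraries labelled DKO. The difference of DKO from WT was -1.58 on the log2 scale (SE 0.538, edgeR adjusted p = 0.0803). Slc2a4, the insulin-responsive glucose transporter, stood at 4.97, 2.08 and 5.59 CPM in WT and at 2.90, 2.25 and 2.04 CPM in libraries labelled Gadd45a-KO. It stood at 7.40, 2.58 and 1.13 CPM in Ing1-KO and at 0.869, 0.817 and 0.969 CPM in the libraries labelled DKO. The difference of DKO from WT was -2.25 on the log2 scale (SE 0.676, edgeR adjusted p = 0.0547). Insr, the insulin receptor, differed by -0.19 in DKO against WT (SE 0.0639, edgeR adjusted p = 0.0721). The adipocyte markers Adipoq and Fabp4 fell by 5.0 and 3.81 on the log2 scale in the same comparison (edgeR adjusted p = 0.0107 and 0.0131), against a fall of 0.37 for Cav1.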
